A study of Mus musculus with 9 samples.

Results

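The genes of creatine metabolism described here are the 4 creatine kinases Ckb, Ckm, Ckmt1 and Ckmt2, the creatine synthesis enzymes Gatm and Gamt, the creatine transporter Slc6a8, and Alpl, a phosphatase. They were picked by gene symbol and are 8 of 53700 gene IDs in the count table. All 8 were among the 17876 genes that passed the filter on low counts, Ckmt2 only through the libraries of tumour-bearing mice, where it is high. The tissue was epigonadal white fat (eWAT), a depot that lies next to the female reproductive tract, taken at week 12 from 9 female mice of the immunodeficient NSG strain, with the genotype given as Wild Type in the labels, and its RNA was sequenced. There were 3 groups of 3 mice: mice 4, 7 and 10, labelled untreated; mice 36, 37 and 41, given 10 tail vein injections of MDA-MB-231 extracellular vesicles (EV) over 5 weeks; and tumour-bearing mice 17, 21 and 22, with an orthotopic tumour of the same human triple-negative breast cancer cell line. The study's text speaks of tumour-free mice and of PBS where the labels say untreated, the mice were young adults when used, and each library came from its own mouse.

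Creatine kinases move a phosphate group between ATP and creatine, and so link the sites where ATP is made to the sites where it is used. Ckm is the cytosolic form of skeletal and heart muscle and Ckmt2 the mitochondrial form of the same tissues, whereas Ckb is the cytosolic form of brain, smooth muscle and many other tissues and Ckmt1 the mitochondrial form found in brain and epithelia. Gatm and Gamt make creatine from arginine, glycine and a methyl group, and Slc6a8 brings it into cells from the blood. In mouse thermogenic fat, a cycle in which creatine is phosphorylated and dephosphorylated without doing work releases heat, and Ckb and the alkaline phosphatase encoded by Alpl have been placed in it.

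The 9 libraries held 20097628 to 26149263 counts and differed in tissue makeup across the groups. Untreated 10, EV 36 and EV 41 carried ovary transcripts (12 markers summed to 4705 to 9604 CPM, which are counts scaled to a common library total, against 7.45 to 18.9 CPM in the other 6), and untreated 7 had the highest smooth muscle sum (10 markers, 16464 CPM against 803 to 3438 CPM) and epithelial sum (13 markers, 5807 CPM against 42.6 to 502 CPM). The fat markers that define the labelled tissue were present throughout, with Adipoq, the hormone adiponectin, at 131 CPM in untreated 7, 334 to 727 CPM in the ovary-containing libraries and 2969 to 4422 CPM in the other 5. Levels below are CPM with TMM scaling, which corrects library totals for differences in composition, unless a level per kilobase of transcript is named. In bulk tissue, fewer cells of a type and less RNA per cell cannot be told apart.

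The muscle isoforms separated the tumour-bearing mice from the others. Ckmt2 was detected in all 3 tumour-bearing libraries and, but for 1 count, in none of the other 6, and Ckm was highest in the same 3 libraries. The 250 bases before their start sites are shown because they are the members that were high together. They are the RefSeq windows of build GRCm38.p6, at chr7:19410844-19411093 on the plus strand for Ckm and chr13:91876886-91877135 on the minus strand for Ckmt2. Capitals mark CANNTG, the E-box letters that myogenic and other helix-loop-helix factors can bind, and TATAAA, on either strand.
Ckm: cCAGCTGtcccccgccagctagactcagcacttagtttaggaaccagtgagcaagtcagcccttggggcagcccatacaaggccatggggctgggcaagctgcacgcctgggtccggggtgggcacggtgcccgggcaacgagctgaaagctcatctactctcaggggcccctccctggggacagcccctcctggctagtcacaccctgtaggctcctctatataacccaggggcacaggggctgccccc
Ckmt2: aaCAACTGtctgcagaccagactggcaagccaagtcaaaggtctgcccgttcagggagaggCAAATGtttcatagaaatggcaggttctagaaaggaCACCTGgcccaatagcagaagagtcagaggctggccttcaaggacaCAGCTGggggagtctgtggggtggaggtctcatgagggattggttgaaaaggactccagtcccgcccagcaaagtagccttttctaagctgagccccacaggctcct
The Ckm window held CANNTG once, at position -249 from the start site, and no TATAAA. The Ckmt2 window held it 4 times, at -248, -189, -153 and -107, which is a count that 3.84% of 32851 mouse promoter windows reach or exceed, whereas 66.2% hold it at least once. These are matches of letters and show no binding.

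Ckmt2 had 0 counts in untreated 4, 7 and 10, 0 counts in EV 36 and 37, and 1 count in EV 41, at 0.0378 CPM. It was at 15.7, 24.6 and 14.4 CPM in tumour-bearing mice 17, 21 and 22, from 281, 425 and 295 counts. Every tumour-bearing library lay above every other library, with mouse 21 the highest. Against a floor of 3 counts in each untreated library, the level in tumour-bearing mice was at least 142-fold higher, and against EV it was 1397-fold higher on 1001 counts versus 1, with a 95% interval of 250 to 55233 that covers counting error only. Ckmt2 rose by edgeR's quasi-likelihood test in both comparisons, with Benjamini-Hochberg adjusted p = 0.0191 against untreated and 0.0198 against EV. The gene was in the tested set only through the tumour-bearing libraries, so these p-values are not independent of that selection. Both calls were lost when any 1 tumour-bearing library was left out (adjusted p from 0.103 to 0.138), with a term for inferred batches (0.123 and 0.0649), and without the 3 ovary-containing libraries (0.107 and 0.296). With the batch term both comparisons rest on mouse 21, since mice 17 and 22 form an inferred batch of their own. Without EV 41 the adjusted p was 0.0504 against untreated. Against EV the call was lost without EV 36, 37 or 41 (0.0922 to 0.127). The fitted log2 fold change, which depends on the prior count, stayed at 11.19 to 12.14 against untreated and 9.49 to 11.68 against EV over all alternatives.

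Ckm was at 0.841, 88.7 and 2.19 CPM in untreated 4, 7 and 10, and at 3.76, 0.388 and 1.85 CPM in EV 36, 37 and 41. Tumour-bearing mice 17, 21 and 22 were at 335, 809 and 355 CPM. The groups did not overlap, but untreated 7 stood 40.5-fold above the next untreated library. The log2 fold change was 4.03 ± 1.64 (SE) against untreated (adjusted p = 0.419) and 7.95 ± 1.98 against EV (adjusted p = 0.351), so Ckm passed the threshold in neither. With untreated 7 left out, these values were 8.35 (adjusted p = 0.0863) and 7.96 (adjusted p = 0.0287), and with only the EV and tumour-bearing groups in the fit the adjusted p was 0.0216. DESeq2 gave Ckm a log2 fold change of 3.98 and 7.99 but no adjusted p.

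Ckm and Ckmt2 were thus the 2 of 8 members whose tumour-bearing libraries all lay above the other group, in each comparison, where 5.64% of 17876 genes did so against untreated and 11.7% against EV. By edgeR, 1 of 8 members was called higher in each. Over all genes tested, 0.218% were called higher against untreated and 0.246% against EV. The member called was Ckmt2, which passed the filter on low counts only through the tumour-bearing libraries. No member was called lower, where 0.0% and 0.0112% of genes were. The comparisons share the tumour-bearing libraries. Across the members the median log2 fold change was -0.59 against untreated and -0.40 against EV, beside -0.12 and -0.06 over all genes tested.

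**Figure D1:**
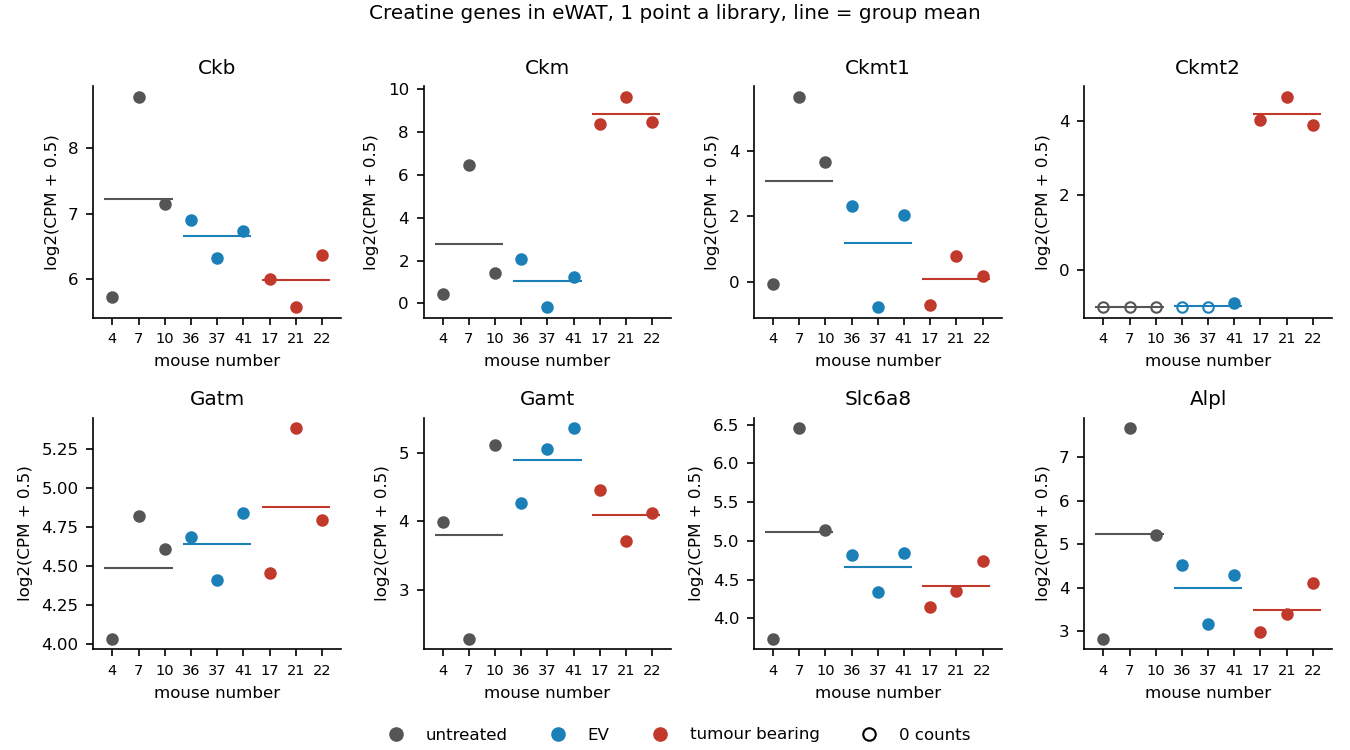
Level of each creatine gene in each library as log2(CPM + 0.5), TMM-scaled, with the mouse number on the horizontal axis, 1 point a library, a line at each group's mean and open circles for 0 counts. Ckm and Ckmt2 are highest in the 3 tumour-bearing libraries, whereas Ckb, Ckmt1, Slc6a8 and Alpl are highest in untreated 7.

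Other skeletal muscle transcripts were high in the same 3 libraries. Of 22 skeletal muscle markers, 14 rose against untreated and 16 against EV, where 0.218% and 0.246% of all genes tested were called higher. None fell, and the median log2 fold change was 6.88 and 7.99, beside -0.12 and -0.06 over all genes tested. Some of these markers, such as Mb, Pvalb and Myh1, passed the filter on low counts only through the tumour-bearing libraries, where they are high. With the batch term 4 and 13 rose, and without the 3 ovary-containing libraries 0 and 0, at medians of 7.58 and 8.98. Against untreated 7 rose without tumour-bearing mouse 22 and 9 without untreated 10, and against EV 0, 8 and 1 rose without EV 36, 37 or 41 and 10 without tumour-bearing mouse 22. Their summed level was 3628 to 9743 CPM in tumour-bearing libraries, 58.5 to 391 CPM in untreated and 49.5 to 116.9 CPM in EV libraries, and none of the 22 was at 0 counts in a tumour-bearing library. Mb, the oxygen store myoglobin, had 111 to 174 CPM in the tumour-bearing libraries and 0 to 0.336 CPM in the rest. Atp2a1, the calcium pump of fast fibres, was at 377 to 1185 CPM against 0.0691 to 0.905 CPM. Myod1 and Myog, the factors of the myogenic lineage, had 0 counts in all 6 other libraries and ranged over only 0.280 to 0.977 and 0.579 to 3.61 CPM in the tumour-bearing group. Myog did not pass (adjusted p = 0.418 and 0.351), and Myod1 was below the filter on low counts. The part of muscle tissue in the fat pads' Ckm and Ckmt2 levels was not tested.

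Within the tumour-bearing libraries Ckm held a narrow ratio to the muscle markers, whereas the ratio of Ckmt2 to Ckm varied more. There were 4.70, 3.04 and 4.06 Ckmt2 counts per 100 Ckm counts in mice 17, 21 and 22. The log2 ratio of Ckmt2 to Ckm (each CPM + 0.5) had an SD of 0.33 in these mice. Ckm stood at 1.02, 0.87 and 0.77 on the log2 scale over the mean of the 22 markers (each CPM + 0.5). The SD of this ratio of Ckm to the markers was 0.13, beside 1.84 in untreated and 1.73 in EV mice. These SDs are not like for like. In untreated and EV libraries the median marker was at only 0.345 to 1.06 CPM, near the 0.5 added. Acta1 alone gave 287 of 391 CPM of the marker sum in untreated 7 and 59.7 of 116.9 CPM in EV 37. The group mean of this log2 ratio was 0.89 in tumour-bearing, 0.21 in untreated and -0.79 in EV mice. Exact permutation tests (two-sided, 3 against 3) gave p = 0.6 against untreated and p = 0.1 against EV, the smallest p this design allows.

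Untreated 7 was an exception among the tumour-free libraries. It held 2566 Ckm counts but 0 Ckmt2 counts, where the lowest ratio of the tumour-bearing libraries would have given 78.1, and 3 counts would be an upper limit of 0.117 Ckmt2 per 100 Ckm. Acta1, the skeletal muscle actin, was at 287 CPM in that library and at 0.645 to 59.7 CPM in the other 5 tumour-free libraries, and Eno3, the muscle enolase, at 54.4 CPM against 8.84 to 11.9 CPM. Mb, Atp2a1 and Myh4, the myosin of the fastest fibres, were at 0.0691, 0.0691 and 0.0346 CPM there, within the range of the other tumour-free libraries or below it. Ckm in untreated 7 was 2.29 on the log2 scale over the marker mean, above every tumour-bearing library. The source of this Ckm signal was not tested.

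**Figure D2:**
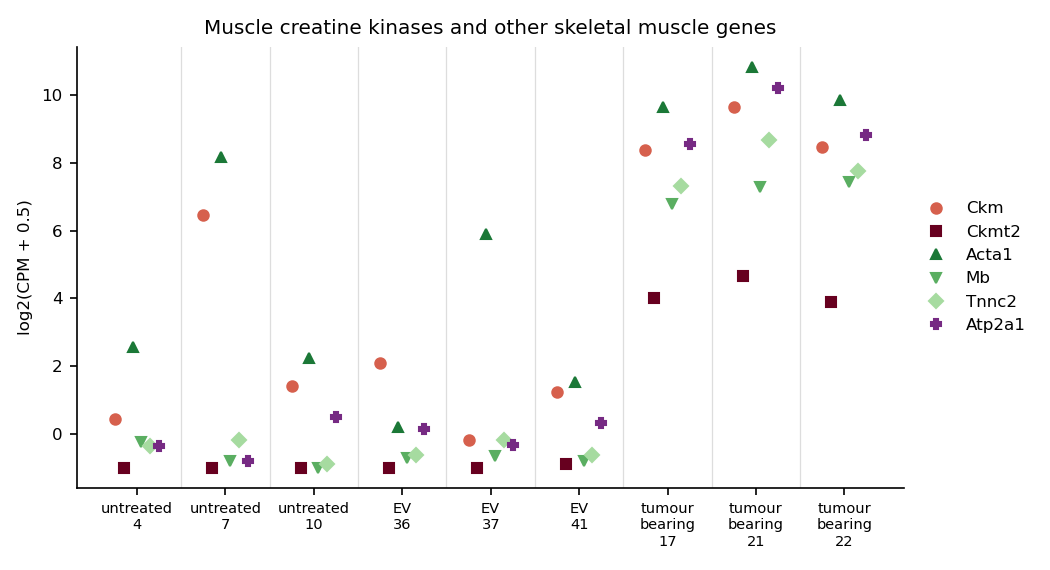
Ckm, Ckmt2 and 4 skeletal muscle markers in each of the 9 libraries as log2(CPM + 0.5), with groups and mouse numbers on the horizontal axis. All 6 genes are high in the 3 tumour-bearing libraries, and in untreated 7 only Ckm and Acta1 of these 6 stand above the other tumour-free libraries, at 88.7 and 287 CPM.

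The make-up of creatine kinase transcripts was reversed between tumour-free and tumour-bearing fat pads. Scaled by transcript length, the muscle isoforms Ckm and Ckmt2 were 1.86%, 17.8% and 1.68% of the 4 kinases in untreated 4, 7 and 10, and 3.50%, 0.576% and 2.02% in EV 36, 37 and 41. They were 86.7%, 95.4% and 84.1% in tumour-bearing mice 17, 21 and 22, above all other libraries. Means were 7.12% ± 9.27, 2.03% ± 1.46 and 88.7% ± 5.90 (SD, n = 3 each), and the exact permutation test gave p = 0.1 for tumour bearing against either other group, the smallest possible with 3 against 3 (adjusted p = 0.225 over the 9 ratio comparisons), and p = 0.7 for EV against untreated. Counting error was small beside these differences, with 95% Wilson intervals of the unscaled shares at most 1.64 percentage points wide.

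The sum of the 4 kinases per kilobase was 325, 704 and 353 CPM in tumour-bearing mice 17, 21 and 22. It was 87.0, 54.5 and 75.5 CPM in EV 36, 37 and 41, and 36.7, 402.9 and 105.4 CPM in untreated 4, 7 and 10. Untreated 7 thus lay inside the range of the tumour-bearing libraries for the sum, while 74.5% of its kinase transcripts were Ckb. Reads were 150 bases long, and the longest run of identical bases shared by 2 transcripts was 20 for Ckb and Ckm and 39 for Ckmt1 and Ckmt2.

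**Figure D3:**
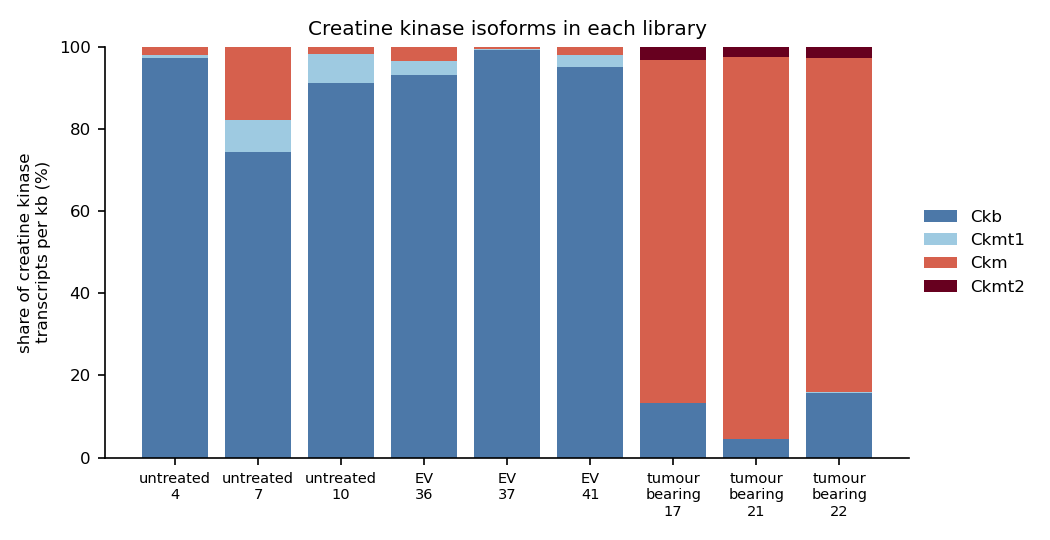
Share of each creatine kinase isoform in the length-scaled sum of the 4 kinases (percent), 1 bar a library. The muscle isoforms Ckm and Ckmt2 take 84.1% to 95.4% in the 3 tumour-bearing libraries and 0.576% to 17.8% in the other 6, where Ckb takes most of the rest.

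The brain-type and epithelial isoforms Ckb and Ckmt1 were spread more widely within the untreated group than between the groups. They are shown with their windows as the counterpart of the muscle isoforms. The RefSeq windows are chr12:111672339-111672588 on the minus strand for Ckb and chr2:121357526-121357775 on the plus strand for the first of 2 annotated Ckmt1 starts, in build GRCm38.p6, with the same letters in capitals.
Ckb: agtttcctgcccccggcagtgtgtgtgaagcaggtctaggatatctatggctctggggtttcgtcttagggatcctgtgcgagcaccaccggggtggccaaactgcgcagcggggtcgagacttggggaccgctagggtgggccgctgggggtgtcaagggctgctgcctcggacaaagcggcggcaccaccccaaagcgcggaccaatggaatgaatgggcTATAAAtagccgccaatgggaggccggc
Ckmt1: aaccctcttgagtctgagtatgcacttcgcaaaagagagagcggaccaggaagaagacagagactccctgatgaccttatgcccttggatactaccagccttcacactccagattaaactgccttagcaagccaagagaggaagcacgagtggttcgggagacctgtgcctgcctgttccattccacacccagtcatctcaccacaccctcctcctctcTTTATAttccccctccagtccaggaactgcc
Neither window held CANNTG. Both held TATAAA, at -28 in Ckb and, as TTTATA of the opposite strand, at -31 in Ckmt1, which 12.4% of windows hold. In Ckb these letters lie inside a match to the MEF2 motif that begins at -29, found in 2.92% of windows. Slc6a8 had no entry in the promoter table.

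Ckb was at 52.6, 442 and 142 CPM in untreated 4, 7 and 10, and at 119.5, 79.7 and 106 CPM in EV 36, 37 and 41. Tumour-bearing mice 17, 21 and 22 were at 63.6, 47.0 and 82.2 CPM. Untreated 7 was the highest of the 9 libraries and mouse 21 the lowest, but untreated 4 lay among the tumour-bearing values, so the groups overlapped. The log2 fold change was -1.72 ± 0.67 for tumour bearing against untreated (adjusted p = 0.418), -1.06 ± 0.66 for EV against untreated (adjusted p = 1) and -0.66 ± 0.65 for tumour bearing against EV (adjusted p = 0.595). Without untreated 7 the difference from untreated was -0.59 for tumour bearing and 0.066 for EV. Per kilobase, Ckb was the most abundant of the 8 genes in every tumour-free library, at 35.7 to 300.1 CPM.

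Ckmt1 was at 0.448, 50.1 and 12.0 CPM in untreated 4, 7 and 10, and at 4.51, 0.0862 and 3.59 CPM in EV 36, 37 and 41. In tumour-bearing mice 17, 21 and 22 it was at 0.112, 1.22 and 0.635 CPM, the first from 2 counts. It was at 3.59 CPM or more in untreated 7 and the ovary-containing libraries, which had the highest epithelial sums, and at 1.22 CPM or less elsewhere. None of the former was tumour-bearing, so epithelial RNA, ovary and group cannot be fully told apart. Epcam, an adhesion molecule of epithelia, was at 75.7 and 42.3 CPM in untreated 7 and 10, and at 26.1 and 28.8 CPM in EV 36 and 41. In the other 5 libraries Epcam was at 0.0560 to 0.819 CPM. Krt19, Krt5, Krt14 and Ovgp1, also epithelial markers, did not follow this split, with Krt19 at 71.2 CPM in EV 37 and 59.2 CPM in EV 41. Without untreated 7 the log2 fold change of Ckmt1 from untreated was -3.24 for tumour bearing and -1.19 for EV. With all libraries it was -4.99 ± 1.80 for tumour bearing against untreated, where edgeR's adjusted p was 0.418 and DESeq2's 0.0208, the only such difference among the members (DESeq2 called 2 of 7, Ckmt2 and Ckmt1, where 4.27% of genes were called in either direction). It was -2.93 ± 1.62 for EV against untreated (adjusted p = 1) and -2.06 ± 1.62 for tumour bearing against EV (adjusted p = 0.515). Left with untreated 4 and EV 37 as the only tumour-free libraries, that is without the ovary-containing ones and untreated 7, the fitted values for tumour bearing were 0.54 and 2.83, on 8 and 2 counts in the lone libraries. The part of epithelium in Ckmt1 was not tested.

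Alpl, which removes phosphate from many substrates and mineralises bone, was at 6.61, 203 and 36.8 CPM in untreated 4, 7 and 10. It was at 22.5, 8.49 and 19.0 CPM in EV 36, 37 and 41 and at 7.45, 10.1 and 16.7 CPM in tumour-bearing mice 17, 21 and 22. Untreated 7 was 5.52-fold above the next library, and untreated 4 was the lowest of the 9. The log2 fold change was -2.85 ± 1.05 for tumour bearing against untreated (adjusted p = 0.418, and 0.0595 by DESeq2), -2.30 ± 1.03 for EV against untreated and -0.55 ± 0.99 for tumour bearing against EV, and none passed. Without untreated 7 the first was -0.93 and the second -0.38. Smooth muscle markers ran alongside: their summed level was 992, 16464 and 3438 CPM in untreated 4, 7 and 10, 2214, 829 and 2467 CPM in EV 36, 37 and 41 and 803, 1277 and 2208 CPM in tumour-bearing 17, 21 and 22. The summed epithelial markers were highest in untreated 7 too, at 5807 CPM against 42.6 to 502 CPM in the other libraries. The parts of smooth muscle and of epithelium in Alpl and Ckb were not tested.

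**Figure D4:**
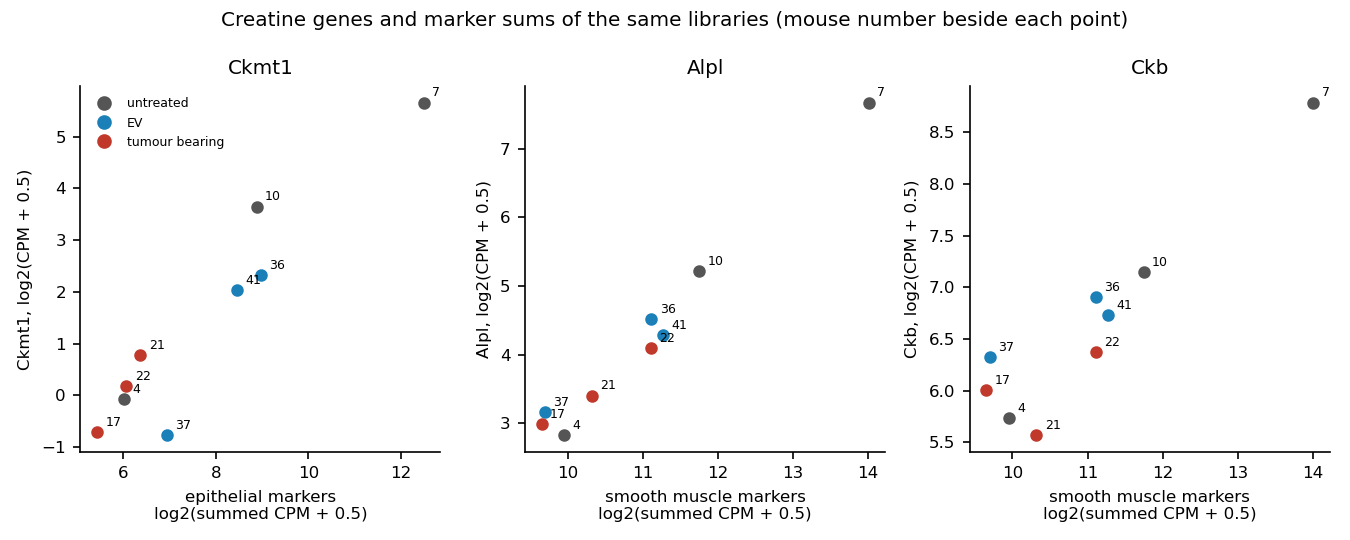
Ckmt1 against the summed epithelial markers, and Alpl and Ckb against the summed smooth muscle markers, each as log2(CPM + 0.5), 1 point a library with its mouse number. Untreated 7 is highest on both axes of every panel, and Ckmt1 is at 3.59 CPM or more in the 4 libraries with the highest epithelial sums.

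Among the genes of creatine transport and synthesis, Gatm varied least. Slc6a8 spanned 6.81-fold over the libraries and Gamt 9.27-fold, beside 9.40-fold for Ckb. Slc6a8 was at 12.8, 87.4 and 34.9 CPM in untreated 4, 7 and 10, at 27.8, 19.6 and 28.2 CPM in EV 36, 37 and 41, and at 17.1, 20.0 and 26.1 CPM in tumour-bearing mice 17, 21 and 22. The EV and tumour-bearing libraries all lay between untreated 4 and untreated 10. Its log2 fold change was -1.10 ± 0.58 for tumour bearing against untreated (adjusted p = 0.443), and -0.18 without untreated 7.

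Gatm, which makes guanidinoacetate in the committed step of creatine synthesis, was at 15.9, 27.8 and 23.9 CPM in untreated 4, 7 and 10, at 25.2, 20.7 and 28.1 CPM in EV 36, 37 and 41, and at 21.4, 41.4 and 27.2 CPM in tumour-bearing mice 17, 21 and 22. It spanned 2.61-fold over the 9 libraries, the narrowest span of the 8 genes, and its log2 fold changes were 0.41 ± 0.31, 0.13 ± 0.31 and 0.28 ± 0.31 for tumour bearing against untreated, EV against untreated and tumour bearing against EV, none of which passed. Gamt, which adds the methyl group, was at 15.4, 4.39 and 34.2 CPM in untreated 4, 7 and 10, at 18.7, 32.7 and 40.7 CPM in EV 36, 37 and 41, and at 21.5, 12.6 and 16.9 CPM in tumour-bearing mice 17, 21 and 22. Its lowest level was in untreated 7. Its log2 fold change was -0.08 ± 0.64 for tumour bearing against untreated, 0.77 ± 0.64 for EV against untreated and -0.85 ± 0.64 for tumour bearing against EV (adjusted p = 0.956, 1 and 0.499).

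Injection of EVs changed no member by edgeR. Of the 8 members 0 were called, where 0.00559% of 17876 genes, that is 1 gene, was called in either direction. None had groups that did not overlap, where 2.88% of genes did. Ckm, at -3.93 ± 1.65, was the 1 member with an unadjusted p under 0.05 by edgeR, as were 1.19% of genes, and DESeq2 called 0 of the 7 members it gave an adjusted p, where 0.092% of genes were called. Ckm was at 0.39 without untreated 7, so its direction in this comparison rested on that library, and so did those of Ckb and Slc6a8, at 0.066 and 0.079 without it. With 3 mice a group and standard errors of 0.31 to 1.65 for the 7 members with counts in both groups, differences of the size of Ckm's and Alpl's, each over 2 times its standard error, did not pass.

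**Figure D5:**
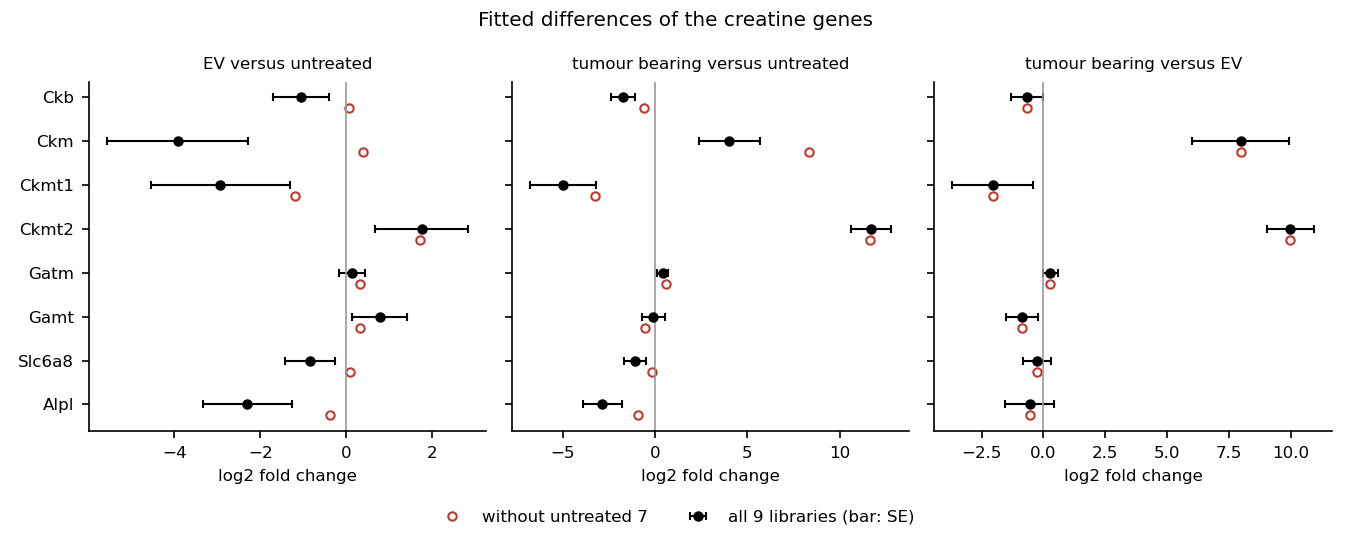
Log2 fold change of each creatine gene in the 3 comparisons, with the standard error as a bar (filled points, all 9 libraries), and the value without untreated 7 (open points). Only Ckmt2 passed the threshold, in both comparisons of tumour-bearing mice, and for EV versus untreated the open points of Ckb, Ckm, Ckmt1, Gamt, Slc6a8 and Alpl lie closer to 0 than the filled ones.

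The genes around the cycle gave no call. Of 15 genes that supply arginine, glycine and methyl groups or carry creatine and its precursors, 0 were called in any comparison, and the median log2 fold change of tumour bearing against untreated was -0.07 beside -0.12 for all genes. Shmt2, the mitochondrial serine hydroxymethyltransferase, was at -0.54 ± 0.21 against untreated and -0.67 ± 0.21 against EV (adjusted p = 0.418 and 0.351), with 29.6 to 33.0 CPM in tumour-bearing mice, 35.1 to 51.1 CPM in untreated and 39.5 to 54.4 CPM in EV mice. Of 11 partners that pass ATP and phosphate out of mitochondria or buffer adenylates, 0 were called, and 10 were above 0 in tumour bearing against untreated (median 0.33). Slc25a4, the ADP/ATP carrier of heart and muscle, was at 0.40 ± 0.29 and Ak1, the cytosolic adenylate kinase of muscle, at 0.66 ± 0.46. Of 11 tested regulators of oxidative and creatine kinase genes, 0 were called. Ppargc1a, a coactivator of mitochondrial genes, was at 1.96 ± 0.63 against untreated and 1.97 ± 0.63 against EV (adjusted p = 0.418 and 0.351). It had 5.66 to 23.8 CPM in tumour-bearing libraries, above 1.58 to 4.48 CPM in the other 6. Over all genes tested, 5.64% had every tumour-bearing library above all untreated ones and 11.7% above all EV ones. Mef2c, a transcription factor, was at 38.9 to 51.3 CPM against 22.9 to 30.9 CPM in the other 6 (adjusted p = 0.292 and 0.351). Its transcripts were thus not confined to the libraries with high skeletal muscle markers. Of 6 tested partners of Alpl in phosphate metabolism, 0 were called, and Enpp1, which makes pyrophosphate, was at 63.6 CPM in untreated 7, where Alpl was highest too.

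Of 11 genes tested from the list of thermogenic fat markers, 0 were called in each comparison, and 9 were above 0 in each. The median log2 fold change was 1.60 for tumour bearing against untreated, beside -0.12 over all genes tested. All 14 adipocyte markers were above 0 there too, at a median of 1.01, and the part of fat content was not tested. The list also held Eva1a, which should not be read as a marker of thermogenic fat. Lhx8, also listed, was at 2.64 to 3.62 CPM in the ovary-containing libraries and at 0 to 0.146 CPM in the others. Ucp1, the uncoupling protein, was at 23.2, 0.207 and 0.641 CPM in untreated 4, 7 and 10, at 0.931, 24.4 and 136.04 CPM in EV 36, 37 and 41 and at 7.84, 43.9 and 27.5 CPM in tumour-bearing mice 17, 21 and 22. Untreated 7, the library with the most Ckb, Slc6a8 and Alpl, had the least Ucp1 and the least Adipoq. Prdm16, of the same marker list, was at 12.8 CPM there, above untreated 4 and 10 (7.79 and 3.40 CPM). Ckb in EV 41, with the most Ucp1, was 106 CPM, between the other EV libraries.

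The genes whose pattern over the 9 libraries lay nearest to each member differed by isoform. For Ckmt2 these were Csrp3, a Z-disc protein, Cox6a2, the muscle form of a cytochrome oxidase subunit, and Ampd1, the muscle AMP deaminase, at a root mean square difference of 0.14, 0.22 and 0.31 in centred log2(CPM + 0.5) where Ckmt2 itself varied by 2.45. These genes were at 0 to 0.336 CPM in the tumour-free libraries, so they reached the mean level asked of candidates only through the tumour-bearing libraries. For Ckm they were Tnnt3, Tcap and Tnni2, proteins of the sarcomere, at 0.83, 1.01 and 1.47 where Ckm varied by 3.73. Tnnt3 and Tcap shared its high value in untreated 7, at 14.2 and 8.50 CPM against at most 3.70 and 1.54 CPM in the other tumour-free libraries. For Ckmt1 they were St14, an epithelial membrane protease, Slc14a1, a urea transporter, and Bdh1, a ketone body enzyme, at 0.34, 0.42 and 0.43 of 2.04. For Alpl they were Tmem30b, Mylk, the myosin light chain kinase of smooth muscle, and Sdc1, an epithelial proteoglycan, at 0.17, 0.25 and 0.29 of 1.42. For Ckb they were Vill, Cep170b and Tuft1, at 0.12 to 0.19 of 0.91, and for Slc6a8 Slc25a24, Wfdc1 and Cystm1, at 0.11 to 0.19 of 0.73. The nearest genes of Gamt (Napepld, Zdhhc2 and Sipa1, 0.36 to 0.39 of 0.88) lay at a larger share of the member's own variation than those of Ckb or Slc6a8. With 9 libraries, 1 of which stood apart for most members, nearness is a description.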

How the data were processed

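The authors deposited 1 table of expected counts (estimated read counts per gene, not whole numbers) and of columns named TPM for 9 mouse libraries. Per the paper's methods, reads of 150 bases were trimmed with SeqPrep and Sickle, aligned with HISAT2 and quantified with StringTie and RSEM, whereas the submitters' processing notes list Bowtie 0.12.2, mm8 and mm9. Labels mention TruSeq as well as SMARTER kits. The annotation was not given in the sources used here. The deposited columns named TPM were treated as a score, since their totals differed between libraries, and served only to infer batches. Among genes at 0 counts in both libraries of a pair, 99.7% to 100% of values agreed within 1e-06 in 16 pairs and 0% to 1.49% in the other 20, which gives 3 batches: untreated 7, tumour bearing 17 and 22, and the other 6. No label gives a batch. In the EV columns, 34 of 42 symbols with several gene IDs had identical counts, so those columns were probably joined by symbol. No member shares its symbol.

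Counts were rounded and fitted over all 9 libraries with edgeR 4.0.16 (R 4.3.3), by its quasi-likelihood test on group after filterByExpr (TMM factors 0.756 to 1.32, calls at a Benjamini-Hochberg adjusted p under 0.05). The biological coefficient of variation was 62.8%. Each standard error (SE) is the log2 fold change divided by the root of F. P-values measure the spread between mice within these groups. Gene IDs were matched to symbols through the reference gene table (52093 of 53700), and transcript lengths came from GENCODE M21. Promoter windows came from RefSeq and were present for 7 of 8 members, and motifs were searched on both strands. Of 166 listed symbols, 164 matched. Ratios were compared by exact permutation tests. Per member, the 3 nearest genes were taken from 11784 with a mean of at least 5 CPM, without predicted genes; from each list, called genes and at most 4 others by smallest p were eligible to be named. The genes nearest to Gatm are not reported here. Other genes given with values (Eno3, Adipoq, Ucp1, Prdm16, Lhx8, Acta1) were chosen after their values were seen. The members, lists, tests and alternatives were chosen with earlier results of these data known. Alternatives were DESeq2 1.42.0, RLE or no scaling factors, no filter, only the compared groups, a batch term, other pseudocounts and libraries left out. The edgeR step was checked on simulated data.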

Additional observations from a re-analysis of the deposited data

How the results depend on the processing

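Over 17 alternatives in each comparison, 377 of 407 values of single members kept their direction, 27 turned and 3 were at 0, all 3 of them Ckmt2 for EV versus untreated in fits without EV 41. Without any 1 library the count of called genes ran from 0 to 2 for EV versus untreated (1 with all libraries), from 8 to 38 for tumour bearing versus untreated (39) and from 0 to 70 for tumour bearing versus EV (46), and that of called members from 0 to 1 for tumour bearing versus untreated (1) and 0 to 2 for tumour bearing versus EV (1). In that order, DESeq2 called 16, 743 and 904 genes, and 2 members for tumour bearing versus untreated. The batch term left 0, 4 and 27 genes and 0 members. Without a filter 4 genes were called for EV versus untreated. With only the compared groups 0 were called for EV versus untreated, and 111 genes and 2 members for tumour bearing versus EV. Without the 3 ovary-containing libraries, alone or together with untreated 7, 0 genes and 0 members were called in all 3 comparisons. These fits leave EV, or EV and untreated, with 1 library, which is assumed to vary like the other groups. The cause of these shifts was not tested.

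Of values that turned for EV versus untreated, the batch term gave 0.066 for Ckb, 0.39 for Ckm and 0.078 for Slc6a8, and the fit without the ovary-containing libraries and untreated 7 gave 0.61 for Ckb, 0.62 for Slc6a8 and 0.36 for Alpl. Without the ovary-containing libraries alone Gatm was at -0.054. With 1 library left out, Ckb ran from -1.52 to 0.066, Ckm from -4.76 to 0.39, Slc6a8 from -1.28 to 0.079 and Gatm from -0.065 to 0.31. For tumour bearing versus untreated without the ovary-containing libraries and untreated 7, the values were Ckb 0.29, Ckmt1 0.54, Gamt 0.14, Slc6a8 0.71 and Alpl 0.78. Without the ovary-containing libraries alone Gamt was at 0.79, and with 1 library left out it ran from -0.54 to 0.78. For tumour bearing versus EV without the ovary-containing libraries, Ckmt1 was at 2.83, Slc6a8 at 0.092 and Alpl at 0.42, and with untreated 7 also left out at 2.83, 0.10 and 0.42. Gatm was at -0.18 without TMM factors and ran from -0.016 to 0.48 with 1 library left out.

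The muscle isoform share of EV minus untreated ran from -7.81 to 0.26 percentage points with 1 library left out. The log2 ratio of Ckmt2 to Ckm ran from -0.091 to 2.94 for EV versus untreated and from -2.73 to 0.30 for tumour bearing versus untreated, where it was -0.88, and 1.17 with a pseudocount of 0.1, since 5 of the 6 tumour-free libraries had no Ckmt2 count. The log2 ratio of Ckm to the muscle markers ran from -1.72 to 0.038 and from -0.047 to 1.71 in these comparisons.

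No paired analysis was possible because the groups share no replicate number. With 3 mice a group, exact tests cannot go below p = 0.1. Untreated 7 alone forms an inferred batch, so its tissue makeup and its batch cannot be told apart. Tumour bearing 17 and 22 form another inferred batch without a library of any other group, so for them tumour and batch cannot be told apart. Fits with the batch term therefore rest on tumour-bearing mouse 21 in both tumour comparisons.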
